A study of Mus musculus with 15 samples.

Results

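Mammary epithelial cells of mice labelled pregnant were compared with those of mice labelled virgin after injection of PBS alone, the control of a study of 2 chromatin drugs. The arrays are those whose titles give the stage and the PBS control, which makes 4 of 15 arrays, 2 with each stage label. All 12393 genes with a probe set of their own are covered, out of 22690 probe sets. A gene with several probe sets is read from the one that averaged highest over the 15 arrays. The group labelled pregnant was at day 21 of pregnancy and the group labelled virgin was 9 weeks old. All mice were C57BL/6 females, and all were injected intraperitoneally. The other 11 arrays, used below for comparison, came from mice given 5-azacytidine (AzaC), which blocks DNA methylation, or valproic acid (VPA), which blocks histone deacetylases. They comprise 3 pregnant and 3 virgin arrays with AzaC and 3 pregnant and 2 virgin arrays with VPA. Glands were digested to purify epithelial cells, mRNA was isolated on magnetic beads, and biotinylated cRNA was hybridised to Affymetrix arrays, which carry several short probes for each transcript. The labels do not say that replicates of a group came from different mice, so every p-value measures the spread between these arrays, which may be technical. Values are given in the order pregnant replicates 1 and 2, then virgin replicates 1 and 2, on the deposited log2 scale. A difference is the pregnant mean minus the virgin mean, given with its standard error (SE). The log base, summarisation and normalization are not given in the sources used here, and log2 is read from the range of the values.

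The mammary gland of a virgin mouse is a sparse tree of ducts in fat. During pregnancy, progesterone and prolactin drive alveoli to bud from the ducts and fill the fat pad, and prolactin acting through STAT5 and ELF5 makes their luminal cells produce caseins and whey proteins. At the end of pregnancy, which lasts about as long as the label states, the gland stands at the onset of full secretion.

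Milk transcripts went against the virgin label. Csn2, which encodes beta-casein, read 13.79 and 13.69 in the pregnant arrays, against 13.69 and 13.80 in the virgin arrays. Wap (whey acidic protein) read 13.78 and 13.53 against 13.66 and 13.69 in virgin arrays, and Lalba (alpha-lactalbumin) 14.21 and 14.11 against 14.17 and 14.05. The groups overlapped for these 3 genes, on a table whose highest value was 14.48. The difference was -0.01 for Csn2 (95% interval -0.34 to 0.33), -0.02 for Wap (-0.42 to 0.38) and 0.05 for Lalba (-0.26 to 0.36). Over 14 measured milk-protein genes of 16 listed, the differences ran from -0.22 to 0.10, with a median of -0.01, against a median of 0.02 over all genes. Their values lay between 12.54 and 14.30 on the 4 arrays, and whether a difference could still register so near the top of the scale was not tested. For Csn1s2a, an alpha-casein gene, the brightest probe set read 14.26 and 14.25 in pregnant arrays and 14.30 and 14.30 in virgin arrays. The dimmest of its 4 probe sets read 13.17 and 13.50 in pregnant arrays and 12.22 and 12.44 in virgin arrays, without overlap, so its probe sets did not give one answer. Of 11 milk fat globule genes 10 had a positive difference, against 6673 of all 12393 genes, and their median was 0.08. On both pregnant arrays 2 lay above both virgin arrays (18.2%, against 15% of all genes) and 0 below (against 13.4%). Cidea, a lipid droplet protein gene, read 13.79 and 13.65 in pregnant arrays and 13.29 and 13.48 in virgin arrays (0.34 ± 0.52, adjusted p = 1). Mfge8 (lactadherin) read 14.11 and 14.12 in pregnant arrays and 14.01 and 14.06 in virgin arrays, while Xdh, whose product helps to envelop the droplets, overlapped (13.79 and 13.62, against 13.74 and 13.22 in virgin arrays). Elf5, the transcription factor of secretory cells, read 13.07 and 13.09 in pregnant arrays and 13.40 and 12.87 in virgin arrays (difference -0.06, 95% interval -0.50 to 0.39). The arrays are therefore called by their labels throughout.

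The labelled cell type had its defining markers. The luminal keratin genes Krt8 and Krt18 and the adhesion gene Epcam read between 11.37 and 12.35 on the 4 arrays, and the myoepithelial gene Acta2 between 13.29 and 13.45. Transcripts of other tissues were also well up the scale, among them Ckm of skeletal muscle (13.10 and 11.68 in pregnant arrays, 12.81 and 12.10 in virgin arrays) and Fabp4 of adipocytes (12.45 and 12.89, against 13.31 and 12.86 in virgin arrays). No marker of the 35 gene lists used here was at 0 on all 4 arrays.

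The virgin arrays stood apart from each other in several measures. They differed from each other by 1 or more for 2033 genes (16.4%), more than any pregnant array differed from any virgin array (1126 to 1671 genes). The 2 pregnant arrays differed by that much for 1111 genes (8.96%). Of the 4 arrays, virgin replicate 1 had the highest summed level of salivary gland genes (15.38, against 13.12 to 13.77 on the others) and the lowest of ribosomal protein genes (17.57, against 17.89 to 17.90). Virgin replicate 2 had the highest 3' to 5' difference of Gapdh control probe sets among the 15 arrays, 1.23, a sign of shortened or incompletely copied RNA. The other virgin array read -0.06 and the pregnant arrays 0.09 and 0.47. Array medians lay between 7.22 and 7.47 and do not separate the groups.

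Across the transcriptome, 6673 genes had a positive and 5674 a negative difference. The only gene past the threshold (adjusted p under 0.05 in a limma fit to all 15 arrays) was Mst1r, 0.00807% of the genes tested. Mst1r encodes RON, the receptor of macrophage-stimulating protein. It read 2.05 and 2.09 in the pregnant arrays and was listed at 0 on both virgin arrays (difference 2.07 ± 0.22 SE, adjusted p = 0.0167). These readings are at the bottom of the scale, 11 of the 15 arrays list the gene at 0, and 1 probe set represents it. Every difference rests on 2 arrays a label. The Mst1r call ended without pregnant replicate 1 (adjusted p = 0.0756), pregnant replicate 2 (0.0715) or virgin replicate 2 (0.0713), and with values under 5 set to 5 its difference was 0. Without virgin replicate 1, the array that stood apart in several gene groups below, 22 genes passed, 12 higher and 10 lower in pregnant arrays, Mst1r among them. An unadjusted p under 0.05 was reached by 276 genes higher in pregnant arrays (2.23%) and 245 lower (1.98%). Both pregnant arrays lay above both virgin arrays for 1854 genes (15%) and below both for 1655 (13.4%). With a difference of at least 1 as well, these were 167 genes (1.35%) and 260 genes (2.1%). These shares are the background for every group of genes below, none of which held a gene past the threshold.

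Clock genes separated the labels in both directions. The circadian clock is a feedback loop present in most mouse cells. BMAL1, the product of Arntl, pairs with CLOCK or its relative NPAS2 and activates genes through E-boxes, among them Per, Cry, Nr1d1 and Dbp. PER and CRY proteins then repress that pair, while REV-ERB proteins (Nr1d1, Nr1d2) repress and ROR proteins (Rora) activate Arntl through ROR elements. DBP, TEF and HLF act on D-boxes of output genes, where NFIL3 opposes them.

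Arntl read 7.89 and 7.87 in pregnant arrays, against 6.66 and 6.58 in virgin arrays, the smallest p of any gene of mean 7 or more in its higher group. Replicates differed by at most 0.08 while the groups were 1.26 ± 0.20 (SE) apart, or 2.39-fold as powers of 2, with an adjusted p of 0.222. The other 13 arrays of the series, drug arrays of both labels included, read between 7.52 and 8.0, all above the 2 virgin PBS arrays. Over all alternatives the difference stayed between 1.21 and 1.32, and the adjusted p between 0.0797 and 1. Npas2 gave 6.81 and 6.70 in pregnant arrays and 2.57 and 5.32 in virgin arrays (2.81 ± 0.76, adjusted p = 0.871). Both virgin arrays were again below all 13 others (5.82 to 7.90), though they differed widely from each other. A second, dimmer Npas2 probe set read 5.72 and 2.60 in pregnant arrays and 3.82 and 4.21 in virgin arrays, and did not separate them. Clock itself read 8.31 and 8.45 against 7.99 and 7.90 in virgin arrays (0.44 ± 0.31), and Rora, an activator of Arntl, read 11.76 and 11.29 against 10.88 and 11.02 (0.57 ± 0.28). Neither had an adjusted p below 1.

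Several genes that BMAL1 is known to activate were lower in pregnant arrays. Dbp, an output factor of the clock, read 7.15 and 7.77 in pregnant arrays, against 9.74 and 9.64 in virgin arrays (-2.23 ± 0.77, adjusted p = 1). Its second probe set had the same order, at 7.54 and 7.34 in pregnant arrays and 9.64 and 8.04 in virgin arrays. Per3, a period gene, gave 7.54 and 7.60 in pregnant arrays and 8.62 and 8.54 in virgin arrays (-1.01 ± 0.40, adjusted p = 1). Here the arrays of each label were within 0.08 of each other. Of its other probe sets, one ran the same way (6.76 and 6.88 in pregnant arrays, 7.06 and 7.10 in virgin arrays) and the dimmest overlapped, at 4.53 and 3.53 in pregnant arrays and 4.53 and 2.54 in virgin arrays. Nr1d2, which encodes the repressor REV-ERB beta, read 9.05 and 9.56 in pregnant arrays and 10.34 and 9.70 in virgin arrays. Tef, a relative of Dbp, read 9.91 and 9.62 in pregnant arrays and 10.62 and 10.20 in virgin arrays. Usp2, a deubiquitinase gene under clock control, read 9.15 and 8.92 in pregnant arrays and 9.38 and 9.73 in virgin arrays. For Usp2 and for Per1 (9.65 and 9.58 in pregnant arrays, 9.92 and 9.83 in virgin arrays) both virgin PBS arrays were above all 13 other arrays. Bhlhe40, a repressor of the loop, gave 9.09 and 8.95 in pregnant arrays and 9.60 and 9.18 in virgin arrays.

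Not all clock genes separated. Nr1d1, the best known REV-ERB gene, read 8.40 and 8.0 in pregnant arrays, inside the 9.20 and 7.13 of the virgin arrays (0.04 ± 0.69). Per2 read 6.72 and 6.54 in pregnant arrays and 7.74 and 6.68 in virgin arrays, and Cry1, Cry2, Nfil3, Hlf and Bhlhe41 overlapped as well. In all, 18 of 20 listed clock genes were measured. Both pregnant arrays lay above both virgin arrays for 4 of them (22.2%, against 15% of all genes) and below for 7 (38.9%, against 13.4%). An unadjusted p under 0.05 was reached by 2 higher and 3 lower members, and by 2.23% and 1.98% of all genes. The list was drawn up with the Arntl result known, so these counts describe it and do not test it. The labels state no hour at which the glands were collected.

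**Figure D1:**
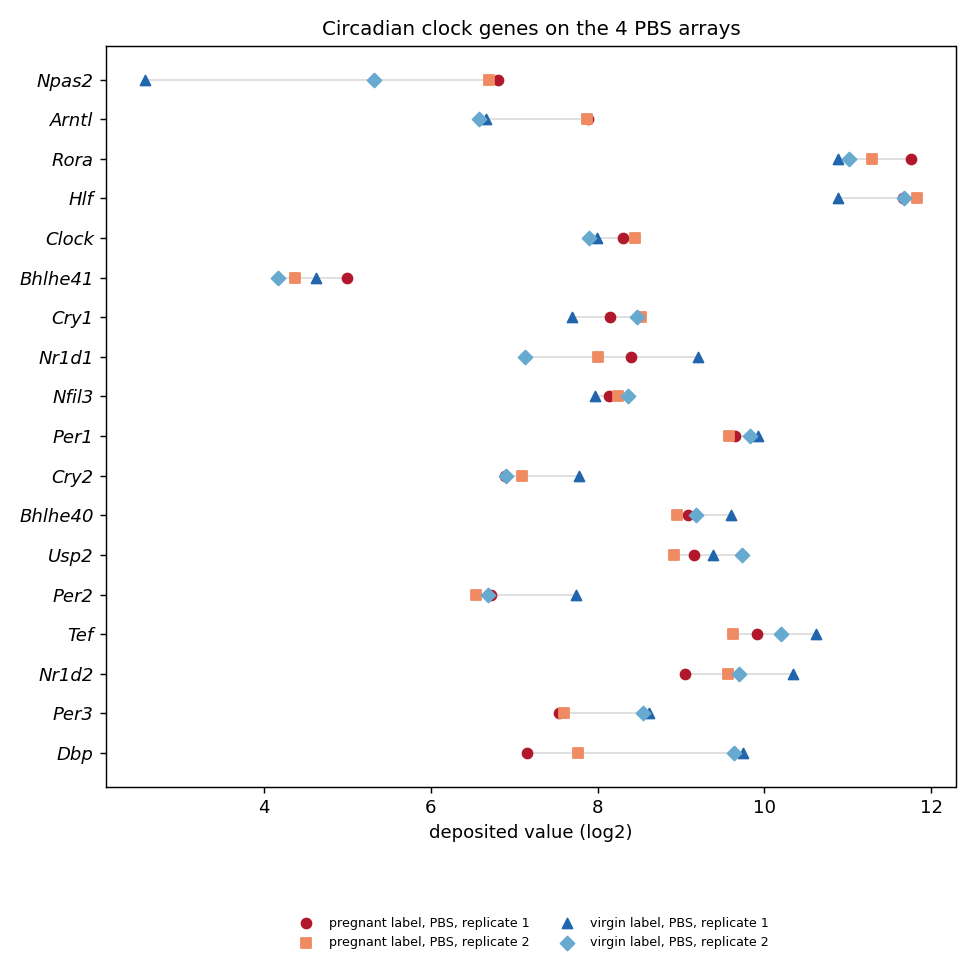
Deposited log2 values (horizontal axis) of the 18 measured clock genes on the 4 PBS arrays, ordered by the difference, pregnant arrays in red and orange and virgin arrays in blue. Npas2 and Arntl, at the top, have both pregnant arrays to the right of both virgin arrays, and Dbp and Per3, at the bottom, have both to the left.

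Promoters of 4 of these genes are shown because the sites through which the loop is known to act can be read in them. They are the 300 bases from 250 before to 50 after a RefSeq transcript start on GRCm38.p6, written 5' to 3' on the gene's strand, with the motif in capitals. The letters searched on both strands were CACGTG for the E-box, TTATGTAA for the D-box and TAGGTCA for the ROR element.
Arntl, chr7:113207261-113207560, + strand: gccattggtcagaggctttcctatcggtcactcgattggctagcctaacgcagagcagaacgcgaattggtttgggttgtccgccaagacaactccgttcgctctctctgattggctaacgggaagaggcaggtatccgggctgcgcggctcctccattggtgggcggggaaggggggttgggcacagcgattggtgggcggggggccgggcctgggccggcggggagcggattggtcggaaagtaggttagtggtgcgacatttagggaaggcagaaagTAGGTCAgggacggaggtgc
Per1, chr11:69098699-69098998, + strand: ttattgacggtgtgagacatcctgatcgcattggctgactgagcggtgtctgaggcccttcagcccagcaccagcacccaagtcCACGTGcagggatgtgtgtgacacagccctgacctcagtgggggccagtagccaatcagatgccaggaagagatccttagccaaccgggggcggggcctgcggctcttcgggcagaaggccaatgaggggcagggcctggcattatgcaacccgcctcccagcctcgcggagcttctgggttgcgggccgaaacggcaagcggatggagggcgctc
Per3, chr4:151044616-151044915, - strand: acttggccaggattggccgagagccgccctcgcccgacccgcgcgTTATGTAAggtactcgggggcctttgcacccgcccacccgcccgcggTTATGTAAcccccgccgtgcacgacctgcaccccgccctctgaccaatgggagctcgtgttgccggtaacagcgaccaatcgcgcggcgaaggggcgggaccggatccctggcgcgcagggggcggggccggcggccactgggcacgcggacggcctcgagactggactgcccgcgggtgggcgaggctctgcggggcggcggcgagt
Tef, chr15:81811164-81811463, + strand: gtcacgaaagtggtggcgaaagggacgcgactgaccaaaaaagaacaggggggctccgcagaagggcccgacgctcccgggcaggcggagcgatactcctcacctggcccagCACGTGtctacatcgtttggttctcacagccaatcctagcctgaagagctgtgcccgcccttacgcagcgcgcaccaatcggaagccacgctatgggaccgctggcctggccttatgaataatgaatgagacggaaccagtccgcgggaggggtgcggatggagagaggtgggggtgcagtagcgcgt
Arntl has 1 ROR element near its start, Per1 and Tef each have 1 E-box and Per3 has 2 D-boxes. Of the 16 clock genes with a RefSeq promoter here, 4 held an E-box, 1 a D-box and 2 a ROR element. Of all 27025 genes with a promoter there, 8.09% held an E-box, 1.11% a D-box and 2.97% a ROR element, and of all 32851 promoters 7.15%, 0.938% and 2.61% did. Dbp, Nr1d1 and Nr1d2 have none of the 3 motifs in this window. A match is a string of letters, and nothing about binding was measured.

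Arntl, Npas2, Dbp and Per3 were set against the drug arrays. Arntl averaged 7.63 ± 0.12 (SD, n = 3) in pregnant and 7.81 ± 0.23 (SD, n = 3) in virgin arrays with AzaC. With VPA it averaged 7.70 ± 0.11 (SD, n = 3) in pregnant and 7.76 ± 0.34 (SD, n = 2) in virgin arrays. The stage difference of Arntl was thus 1.26 after PBS, -0.18 after AzaC and -0.06 after VPA. The difference between these differences was 1.44 against AzaC (adjusted p = 0.124) and 1.32 against VPA (adjusted p = 0.0615), both short of the threshold. Dbp shows that single drug arrays can reach the virgin PBS level: pregnant AzaC replicate 3 read 9.71, against 7.81 and 6.99 in the other arrays of its group. Per3 was also highest on that array, at 8.80, while its Arntl value, 7.61, was within the range of its group.

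**Figure D2:**
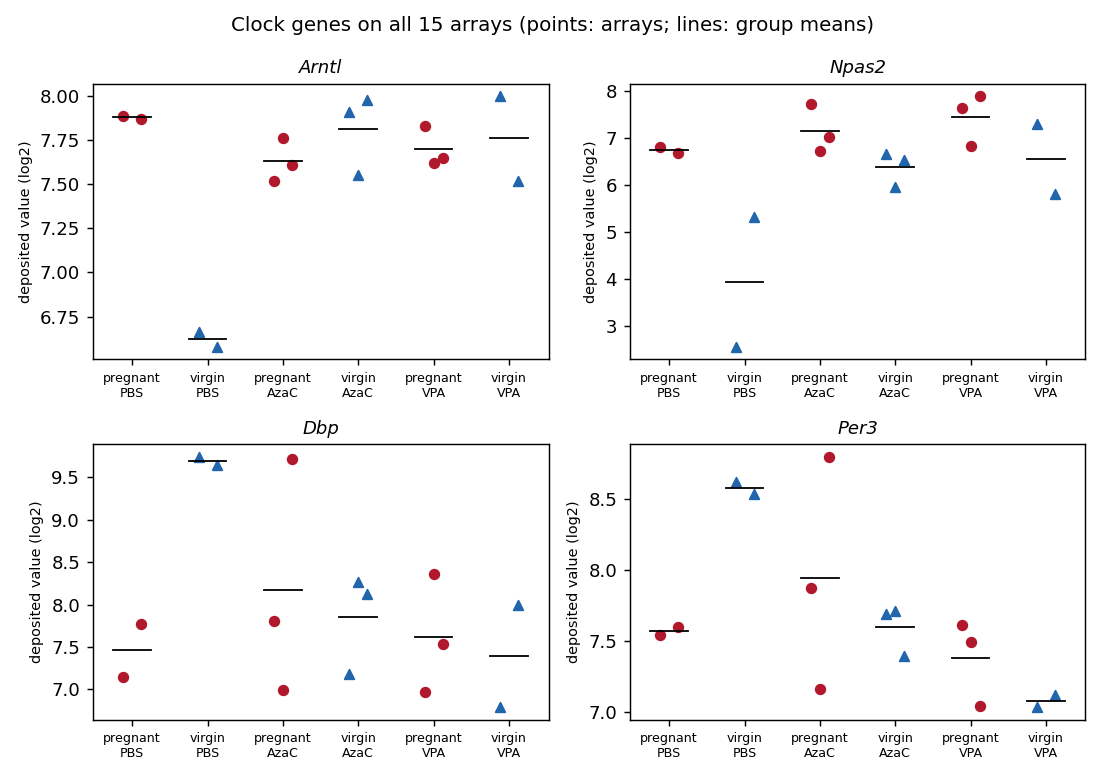
Deposited log2 values of Arntl, Npas2, Dbp and Per3 on all 15 arrays by stage label and injection, with pregnant groups left of virgin groups, points for arrays and lines for group means. For Arntl and Npas2 the virgin PBS arrays are the lowest of the 15, whereas for Dbp and Per3 a pregnant AzaC array is as high as they are.

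The largest differences in the comparison were in genes of salivary glands. Smr3a, an androgen-regulated secreted salivary peptide gene, read 2.96 and 0 in pregnant arrays, against 13.08 and 8.61 in virgin arrays (-9.37 ± 1.90, adjusted p = 0.611). Bpifa2, the parotid secretory protein, read 5.45 and 5.48 in pregnant arrays and 13.79 and 10.01 in virgin arrays (-6.43 ± 1.51, adjusted p = 0.725). Amy1, the salivary amylase, read 6.48 and 5.19 in pregnant arrays and 13.01 and 7.54 in virgin arrays (-4.44 ± 1.44, adjusted p = 1). The groups did not overlap, yet the virgin arrays were several units apart, with replicate 1 the higher in each case. Dnase1, a secreted nuclease made in quantity by the mouse parotid, read 6.31 and 6.82 in pregnant arrays and 12.51 and 7.96 in virgin arrays. Car6, the carbonic anhydrase of saliva, also did not overlap but had virgin replicate 2 the higher. It read 10.13 and 10.92 in pregnant arrays and 11.63 and 12.13 in virgin arrays. Pip, a prolactin-inducible secreted protein, read 5.6 and 7.28 in pregnant arrays and 10.42 and 8.02 in virgin arrays, and the kallikrein Klk1 read 5.42 and 5.46 against 8.30 and 5.51.

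Of 26 listed salivary genes 15 were measured, 7 with both pregnant arrays below both virgin arrays (46.7%, against 13.4% of all genes) and 1 above (6.67%, against 15%), Bhlha15, a transcription factor of secretory cells. Their median difference was -1.04, and -0.29 without virgin replicate 1. Among the members that overlapped, Lpo (lactoperoxidase) read 10.86 and 10.59 in pregnant arrays and 10.73 and 10.84 in virgin arrays, and Egf 10.58 and 10.71 against 10.25 and 10.77. High readings were not confined to PBS. Virgin VPA replicate 2 read 10.55 for Smr3a, 12.69 for Bpifa2 and 10.04 for Amy1. The virgin AzaC arrays and virgin VPA replicate 1 did not share them, at 2.89 to 5.05, 5.03 to 7.84 and 5.94 to 6.82. The 8 pregnant arrays of all injections read at most 3.12, 7.2 and 7.48 for the same genes. The summed level of the list, as log2 of the sum of powers of 2, was 13.12 and 13.14 in pregnant arrays and 15.38 and 13.77 in virgin arrays. In such bulk samples more cells of a type and more RNA per cell cannot be told apart. The part of salivary tissue in other differences between the labels was not tested.

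**Figure D3:**
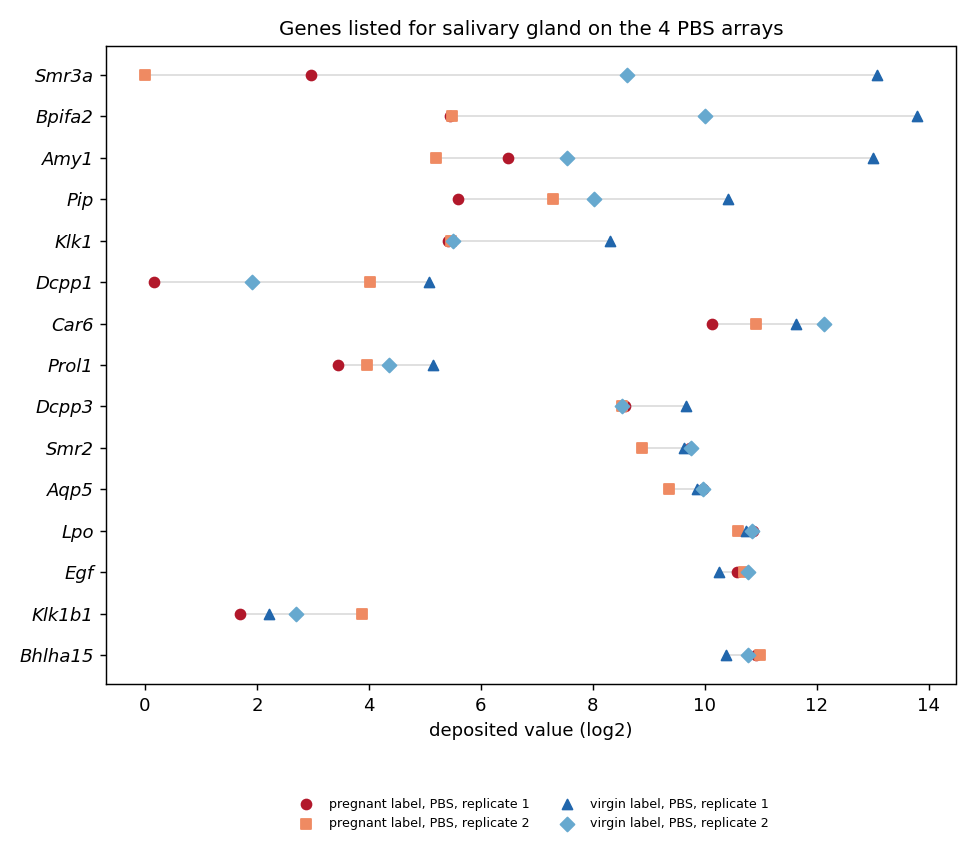
Deposited log2 values (horizontal axis) of the 15 measured salivary gland genes on the 4 PBS arrays, ordered by the difference. Smr3a, Bpifa2 and Amy1 are highest on virgin replicate 1 (13.08, 13.79 and 13.01) and next on virgin replicate 2. Lower rows such as Lpo and Egf overlap. In the bottom row, Bhlha15, both pregnant arrays lie to the right of both virgin arrays.

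Beside Arntl, Smr3a and Bpifa2, the genes that did not overlap and had the smallest p in each direction, among those with a mean of 7 or more in the higher group, were as follows. Higher in pregnant arrays were Ccn3, a matricellular signalling protein (7.25 and 6.81, against 6.03 and 5.62 in virgin arrays), and its second probe set (7.15 and 6.95, against 6.2 and 6.12). The difference of Ccn3 was 1.21 ± 0.26 (SE, adjusted p = 0.639). Tfdp1, the partner of E2F factors, read 9.99 and 10.24 in pregnant arrays and 9.45 and 9.39 in virgin arrays. Tbc1d13, a Rab GTPase activator, read 10.65 and 10.58 in pregnant arrays and 9.84 and 10.07 in virgin arrays. Srsf6, a splicing factor, read 11.76 and 11.81 in pregnant arrays and 10.99 and 11.01 in virgin arrays, but of its 2 other probe sets one had virgin replicate 2 on top, at 10.86 and 11.01 in pregnant arrays and 10.43 and 12.27 in virgin arrays. The remaining names are Ntmt1, Mphosph6, Tnfaip8, Mdn1, Aagab, Zfp612 and Tada1, with differences from 0.62 to 1.31. Second probe sets of Ntmt1, Mdn1 and Aagab overlapped, with differences of -0.61, -0.18 and 0.26. Mphosph6 and Mdn1 belong to RNA and ribosome maturation, and Tada1 to a histone acetyltransferase complex.

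Lower in pregnant arrays was Edar, the ectodysplasin receptor of skin appendages and mammary buds, which read 9.73 and 10.25, against 11.21 and 11.45 in virgin arrays (-1.34 ± 0.37, adjusted p = 0.906). Glul, the glutamine synthetase, read 11.06 and 11.11 in pregnant arrays and 11.84 and 11.81 in virgin arrays (-0.74 ± 0.23, adjusted p = 0.961), and its second probe set read 9.68 and 9.56 against 10.53 and 9.95. Nos3, the endothelial nitric oxide synthase, read 7.57 and 7.48 in pregnant arrays and 8.15 and 8.17 in virgin arrays. Adh1, an alcohol and retinol dehydrogenase, read 7.85 and 7.70 in pregnant arrays and 8.80 and 8.45 in virgin arrays. With Smr3a and Bpifa2 the other names are Myo15, Ubox5, Snx10, Cyp39a1, Marchf9 and Gucd1, with differences from -0.94 to -0.62. The 6 largest positive differences of all genes were in Pbld2, F10, Shox2, Insm1, Trpm5 and Npas2 (2.81 to 3.34). Apart from Npas2 these are dim: Insm1, a neuroendocrine transcription factor, read 2.79 and 3.02 in pregnant arrays and was listed at 0 on both virgin arrays. Shox2, a limb and heart homeobox gene, read 3.00 and 2.86 in pregnant arrays and 0.02 and 0 in virgin arrays. The largest negative ones were the salivary genes above with Cby1 and Pcdhb14, both at 2.48 or less on at least 3 of the 4 arrays.

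Of the 35 gene lists, interferon-stimulated genes had the highest share of members lower on both pregnant arrays. None of 23 measured members had both pregnant arrays above both virgin arrays, and 12 had both below (52.2%, against 13.4% of all genes). Rsad2, the antiviral protein viperin, read 9.08 and 9.63 in pregnant arrays and 9.96 and 9.97 in virgin arrays (-0.61 ± 0.40). Usp18, which removes the ubiquitin-like ISG15, read 7.43 and 7.35 in pregnant arrays and 8.51 and 7.89 in virgin arrays (-0.81 ± 0.48). The RNA sensor gene Ifih1 read 7.88 and 8.64 in pregnant arrays and 8.96 and 9.01 in virgin arrays (-0.72 ± 0.42). No member reached an unadjusted p under 0.05. Differences were small, with a median of -0.31, which stayed between -0.43 and -0.20 over all alternatives. Members that overlapped included the transcription factor genes Irf1, Irf7 and Irf9, with differences from -0.08 to -0.05.

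Markers of stromal cells had negative median differences, whose size moved with single arrays. Of 18 endothelial genes 17 had a negative difference, with 5 below on both arrays (27.8%, against 13.4% of all genes), and the median was -0.29. Emcn (endomucin) read 5.64 and 6.01 in pregnant arrays and 7.11 and 6.83 in virgin arrays, and the water channel gene Aqp1 read 8.36 and 9.65 against 10.14 and 9.96. Pregnant replicate 1 was the lowest array for most endothelial genes, and the median was -0.06 without it and -0.71 without pregnant replicate 2. For adipocyte genes (median -0.42, 3 of 13 below, 23.1%, against 13.4% of all genes) virgin replicate 1 was the high array. Pparg, the master regulator of fat cells, read 3.70 and 5.23 in pregnant arrays and 6.36 and 5.19 in virgin arrays. Without virgin replicate 1 the adipocyte median was -0.01 and the fibroblast median -0.04, against -0.34 with it. Dcn (decorin), made by fibroblasts, read 10.71 and 10.63 in pregnant arrays and 11.85 and 11.06 in virgin arrays. The summed level of the fibroblast list was 13.62 and 13.81 in pregnant arrays and 14.28 and 13.77 in virgin arrays. Its part in the matrix genes, 7 of 27 of which were below on both arrays (25.9%, against 13.4% of all genes), was not tested.

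Genes of secretion were described by their unfolded protein response and transport members. The unfolded protein response expands the endoplasmic reticulum in secretory cells. Of 26 of its genes, 10 had both pregnant arrays above both virgin arrays (38.5%, against 15% of all genes). Both were below for 3 (11.5%, against 13.4%). Dnajb9, a chaperone partner of BiP, read 10.69 and 10.62 in pregnant arrays and 10.28 and 9.82 in virgin arrays (0.60 ± 0.29). Manf, a secreted stress factor, read 11.55 and 11.56 in pregnant arrays and 10.92 and 11.13 in virgin arrays (0.53 ± 0.39). The calreticulin gene Calr read 13.18 and 13.08 in pregnant arrays and 12.97 and 12.72 in virgin arrays. Hspa5 itself, which encodes BiP, overlapped (11.95 and 12.31 in pregnant arrays, 11.76 and 12.27 in virgin arrays), and the death-linked factor Ddit3 ran the other way (7.54 and 7.46, against 7.80 and 7.92 in virgin arrays). No member reached an unadjusted p under 0.05. The list median was 0.15 and lay between 0.10 and 0.21 over all alternatives.

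Milk calcium and solute transport was mixed, with 6 of 19 genes above (31.6%, against 15% of all genes) and 5 below (26.3%, against 13.4%). Orai1, the store-operated calcium channel, read 12.06 and 12.01 in pregnant arrays and 11.52 and 11.84 in virgin arrays. The calcium pump gene Atp2c1 of the Golgi read 10.85 and 10.82 in pregnant arrays and 10.54 and 10.53 in virgin arrays (0.30 ± 0.22). Slc5a5, the iodide transporter, was listed at 0 on both pregnant arrays and read 1.94 and 3.10 in virgin arrays. In the prolactin and STAT5 list the cyclin gene Ccnd1, a driver of alveolar growth, read 11.87 and 12 in pregnant arrays and 10.55 and 11.31 in virgin arrays (1.00 ± 0.34, adjusted p = 1). Its 2 other probe sets kept the order (11.56 and 11.51 against 10.43 and 11.02 in virgin arrays, and 10.75 and 10.73 against 9.84 and 10.30). Stat5a read 11.13 and 10.76 in pregnant arrays and 11.19 and 10.55 in virgin arrays, with overlap.

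Groups of core metabolism moved with 1 array. Ribosomal protein genes had a median difference of 0.23, which was -0.01 without virgin replicate 1. On both pregnant arrays 10 of 32 lay above (31.25%, against 15% of all genes) and 0 below (against 13.4%). Rps7, of the small ribosomal subunit, read 13.15 and 12.94 in pregnant arrays and 12.45 and 12.92 in virgin arrays. Genes of oxidative phosphorylation had 34 of 37 positive differences. Only 3 of these 37 genes lay above on both pregnant arrays (8.11%, against 15% of all genes) and 0 below (against 13.4%). Their median of 0.14 became -0.14 without virgin replicate 1 and 0.46 without virgin replicate 2. Cholesterol synthesis genes had a median of 0.19, with 5 of 18 above (27.8%, against 15% of all genes) and 0 below (against 13.4%). That median also moved, to 0.02 without virgin replicate 1. Fdps, which makes farnesyl diphosphate, read 11.51 and 11.20 in pregnant arrays and 10.54 and 10.70 in virgin arrays (0.73 ± 0.55). Genes of fatty acid and triglyceride synthesis had a median of 0.005, and Fasn, the fatty acid synthase, read 14.07 and 13.98 in pregnant arrays and 14.05 and 13.99 in virgin arrays.

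**Figure D4:**
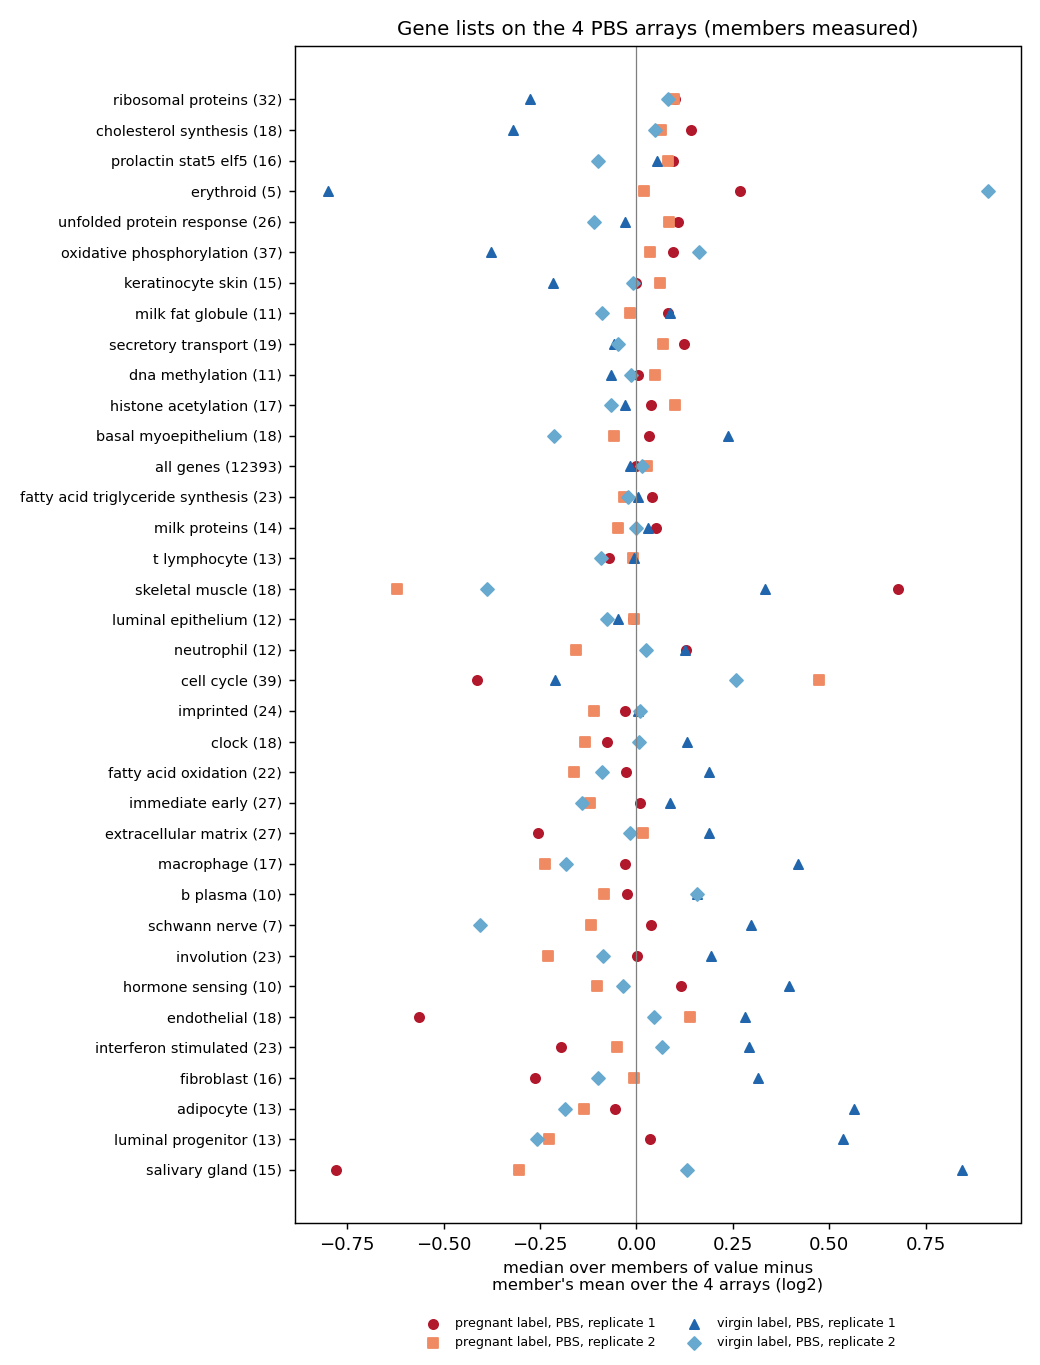
For each gene list (number of measured members in brackets), the horizontal axis gives the median over members of each array's log2 value minus that member's mean over the 4 arrays. Lists are ordered by their median difference: the salivary list is lowest, ribosomal protein genes and cholesterol synthesis are at the top with virgin replicate 1 apart from the other 3 arrays, and the cell cycle list is split by array within each label.

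Proliferation genes varied within a label more than between labels. Mki67, a marker of cycling cells, read 10.28 and 11.93 in pregnant arrays and 10.72 and 11.81 in virgin arrays (-0.16 ± 1.12). Of 39 cell cycle genes, 17 were higher by 1 or more in pregnant replicate 2 than in pregnant replicate 1, and 0 the other way. In the virgin arrays 9 were higher by 1 or more in replicate 2 and 2 in replicate 1. Both pregnant arrays lay above both virgin arrays for 6 of the 39 (15.4%, against 15% of all genes), among them helicase subunit genes of DNA replication. Mcm4 read 9.59 and 9.80 in pregnant arrays and 8.74 and 9.35 in virgin arrays (0.65 ± 0.28, adjusted p = 1), and Mcm6 read 10.90 and 11.28 against 9.97 and 10.78. Skeletal muscle genes were another list split by array, with 14 of 18 higher by 1 or more in pregnant replicate 1 than in replicate 2. Their median difference between the labels was -0.02, and it was -0.64 without pregnant replicate 1 and 0.69 without pregnant replicate 2.

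Genes of the pathways that the drugs of the wider study act on had small median differences. Dnmt1, the maintenance DNA methyltransferase, read 10.27 and 10.54 in pregnant arrays and 10.05 and 10.49 in virgin arrays (difference 0.14, 95% interval -0.37 to 0.64), and its arrays overlapped, as did those of the deacetylase gene Hdac1 (10.10 and 10.54, against 9.86 and 10.62 in virgin arrays). Hdac2, a related deacetylase gene, did not overlap, at 7.82 and 7.67 in pregnant arrays and 7.42 and 7.07 in virgin arrays (0.50 ± 0.34, adjusted p = 1). Of 11 genes of DNA methylation 3 lay above (27.3%) and 0 below on both arrays (median 0.08). Of 17 of histone acetylation 4 lay above (23.5%) and 2 below (11.8%), with a median of 0.04. Over all genes these shares were 15% and 13.4%. Esr1, the estrogen receptor, read 6.26 and 5.21 in pregnant arrays and 6.30 and 5.55 in virgin arrays, with overlap. Pgr, the progesterone receptor, did not overlap but was dim, at 1.40 and 3.35 in pregnant arrays and 3.41 and 4.12 in virgin arrays (-1.39 ± 1.00, adjusted p = 1). Kit, the receptor of luminal progenitors, read 7.33 and 7.18 in pregnant arrays and 9.11 and 6.74 in virgin arrays, with overlap. Its second, dimmer probe set did not overlap, at 5.53 and 4.62 in pregnant arrays and 7.2 and 5.65 in virgin arrays. The luminal progenitor list had a median of -0.50, which was 0.25 without virgin replicate 1.

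The stage difference with PBS was then tested against the stage difference of each drug, with which it shares no array. With AzaC, 15 genes were past the threshold as higher with the pregnant label (0.121%) and 137 as lower (1.11%), and 18.4% had an unadjusted p under 0.05. With VPA these were 458 genes (3.7%) and 367 genes (2.96%), and 25.1%. No gene differed between the PBS and AzaC stage differences in the limma fit (0% higher and 0% lower), while 1587 genes (12.8%) had an unadjusted p under 0.05. Between PBS and VPA, 24 genes were past the threshold with a higher value for PBS (0.194%) and 15 with a lower one (0.121%), and 2340 genes (18.9%) had an unadjusted p under 0.05.

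Of these 39 genes, 38 had a VPA stage difference past the threshold and 1, Mst1r, had a PBS difference past it. Signs were opposite in the 2 comparisons for 38, and 33 had a PBS difference between -1 and 1. The 39 were taken for the gap between the 2 differences, which favours opposite signs, so the signs are no further test. The count was 0 without pregnant VPA replicate 1 or 2 or virgin VPA replicate 1, and 80 without virgin PBS replicate 2. It was 16 with quantile normalization and 0 with the replicate number as a block. Most or all of the 39 lost the call without pregnant PBS replicate 1 or 2, virgin PBS replicate 1 or virgin VPA replicate 2. Each of these fits leaves 1 array in a group. Without pregnant VPA replicate 3 most lost it as well. Slc13a1, a sulfate transporter gene, read 6.82 and 6.97 in pregnant PBS arrays and 5.69 and 5.70 in virgin PBS arrays (1.20 ± 0.23). Its stage difference with VPA was -1.43, and the 2 differed by 2.63 ± 0.31 (adjusted p = 0.0279). Ccnd1 had a stage difference of 1.00 with PBS and -1.96 with VPA, which differed by 2.97 ± 0.46 (adjusted p = 0.0325). Socs3, whose product damps JAK-STAT signals, read 6.79 and 6.52 in pregnant PBS arrays and 6.93 and 6.88 in virgin PBS arrays, and its stage difference was -0.25 with PBS and 2.86 with VPA. Phactr1, a regulator of actin, read 6.69 and 7.29 in pregnant PBS arrays and 5.87 and 6.97 in virgin PBS arrays, with 0.57 against -4.31 for VPA. For Angptl4, an inhibitor of lipoprotein lipase, the PBS arrays read 8.01 and 7.88 with the pregnant label and 10.16 and 8.25 with the virgin label. Its stage difference was -1.26 with PBS and 5.58 with VPA. Tfdp1 and Myo15, named above for their PBS differences, were also among the 39, at 0.70 against -0.61 for VPA and at -0.82 against 0.90. The clock list had 0 members among them.

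**Figure D5:**
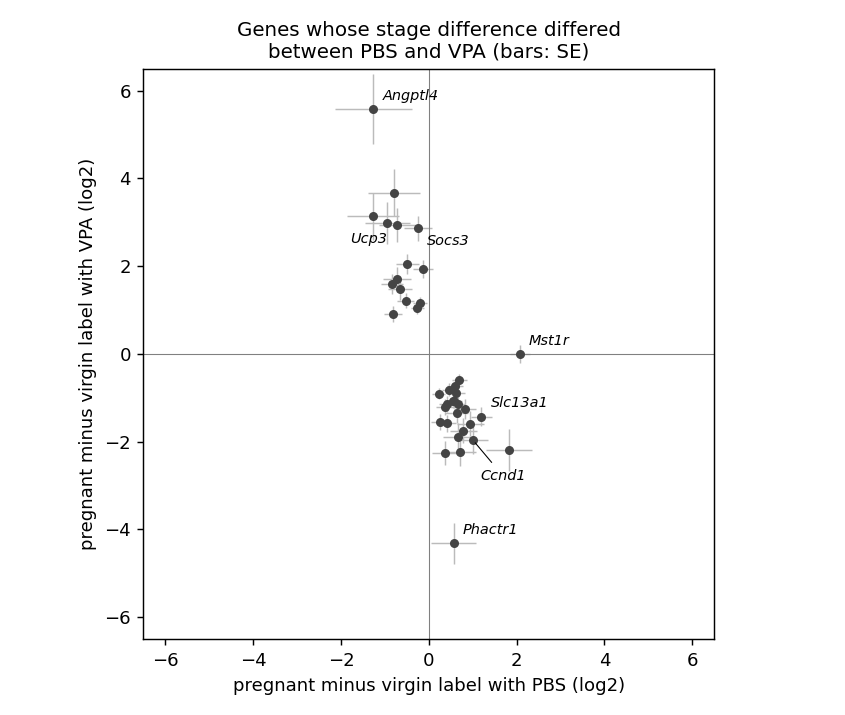
Stage difference (pregnant minus virgin label, log2) with PBS on the horizontal axis and with VPA on the vertical axis for the 39 genes whose stage differences differed, with bars for 1 SE. All but Mst1r lie in the upper left or lower right of the plot, and most lie within 1 of zero on the PBS axis.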

How the data were processed

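The 15 arrays are Affymetrix arrays of mouse mammary epithelial cells. The deposited value table holds 1 log2 value per probe set and array. Its log base, background correction, summarisation and normalization by the authors are not given in the sources used here, nor are detection calls. Probe sets were named from the platform annotation of 2016: of 22690, 20380 had 1 symbol, 691 several and 1619 none, and 64 were control probe sets. A gene was read from its brightest probe set on average over the 15 arrays, which left 12393 genes.

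Differences were fitted with limma 3.58.1 in R 4.3.3 (lmFit and eBayes, 1 mean for each of 6 groups, all 15 arrays) with Benjamini-Hochberg adjustment over all genes and a threshold of 0.05. The number of arrays limits the precision. Alternatives were quantile scaling, a filter on genes averaging under 6, averaging a gene's probe sets, trend and robust eBayes, a fit to the compared arrays alone, replicate numbers as a block, a floor of 5, the Gapdh 3' minus 5' difference as a covariate, and leaving out each array.

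Genes were named by rule: those past the threshold; in each direction the 12 smallest p and the 6 largest differences; in each of 35 gene lists the 2 largest differences each way; 21 fixed genes; and 6 genes for each drug comparison. The smallest p and the lists took only genes whose arrays did not overlap and whose higher group averaged 7 or more. Clone names were passed over. Every other gene named as an example of its list was chosen after its values were seen. Members and lists were chosen with earlier results of these data known.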

Additional observations from a re-analysis of the deposited data

Results flagged for a closer look

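The stage difference with PBS differed from the stage difference with VPA in 39 genes, by a limma test of the difference between the 2 differences. The 13 of these that the naming rule took are given here, and other members of the described lists are not. Each value that follows is the PBS stage difference minus the VPA stage difference on the log2 scale, with its adjusted p in limma. PBS lay above VPA for Phactr1 by 4.88 (adjusted p = 0.0279), Ccnd1 by 2.97 (adjusted p = 0.0325), Slc13a1 by 2.63 (adjusted p = 0.0279) and the secretory cell factor Bhlha15 by 2.63 (adjusted p = 0.0325). It was also higher for Mst1r by 2.07 (adjusted p = 0.0279), Tbc1d13 by 1.80 (adjusted p = 0.0279) and Tfdp1 by 1.30 (adjusted p = 0.0483). PBS lay below VPA for Angptl4 at -6.84 (adjusted p = 0.0483), the mitochondrial carrier Ucp3 at -3.66 (adjusted p = 0.0325) and Socs3 at -3.11 (adjusted p = 0.0279). The same held for N4bp2l1 at -2.54 (adjusted p = 0.0279), Wfdc5 at -2.44 (adjusted p = 0.0279) and the unconventional myosin Myo15 at -1.72 (adjusted p = 0.0388). In 37 of the 39 genes the VPA stage difference was the larger in size. None of the 39 genes stayed past the threshold without pregnant VPA replicate 1 or pregnant VPA replicate 2, or with the replicate number as a block. Without pregnant VPA replicate 3, only 3 of them stayed. Fits without an array of pregnant PBS, virgin PBS or virgin VPA leave 1 array in that group. In these too most or all of the 39 lost the call, except without virgin PBS replicate 2, where most kept it.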

How the results depend on the processing

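The count of 1 gene past the threshold with PBS became 0 when genes with a mean under 6 were left out, with trend and robust eBayes, with only the arrays compared and with the replicate block, where 295, 502, 401 and 561 genes had an unadjusted p under 0.05, against 521 as reported. It became 4 with values under 5 set to 5 and 2 with the Gapdh covariate, and ranged from 1 to 22 without single arrays. Mst1r had an adjusted p of 0.0835 with the replicate block, 0.923 with only the arrays compared and 1 with trend and robust eBayes. The PBS minus AzaC count of 0 became 1 with only the arrays compared, 49 with values under 5 set to 5, and 0 to 42 without single arrays. The highest came without pregnant AzaC replicate 2, and it was 15 without virgin PBS replicate 1. The PBS minus VPA count of 39 became 16 with quantile normalization, 264 without genes of mean under 6, 242 with trend and robust eBayes, 84 with only the arrays compared, 0 with the replicate block, 147 with values under 5 set to 5 and 83 with the Gapdh covariate. Without single arrays it ranged from 0 to 80. It was 2 and 3 without pregnant PBS replicates 1 and 2, and 5 and 10 without pregnant VPA replicate 3 and virgin VPA replicate 2. The genes counted were not all among the 39: with only the arrays compared, 20 of the 84 were. The cause of these changes in the counts was not tested. Replicate numbers are shared by 2 pairs of PBS arrays and were not taken as pairs. Their deviations from the group means correlated at 0.468, which is 1 value, as 2 arrays a label make both pairs give the same. Among 8826 genes averaging 6 or more, PBS arrays of different label but the same number differed by 1 or more for 261 and 162 genes. Those of different label and number did so for 511 and 586. What the shared number stands for is not stated in the labels, and its part was not tested. No called value changed sign. Of the recomputed values of single genes and list medians, 1171 kept their side of the threshold or stayed within the spread. Another 92 moved, most of them list medians, and 7, all of Mst1r, lost the call. As only Mst1r was past the threshold as reported, keeping a side says little about size. The difference of F10, 2.92 as reported, fell as low as 0.17 among the alternatives and still counted as kept. So did that of Pbld2, which fell from 3.34 to 0.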

Other observations

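Among genes of the early response to growth and stress signals, Ier5 read 9.45 and 9.26 in pregnant arrays and 8.15 and 8.91 in virgin arrays (0.82 ± 0.27 SE, adjusted p = 1), and the growth regulator Myc read 9.16 and 8.95 against 8.39 and 8.57 in virgin arrays. The orphan receptor gene Nr4a1 read 7.54 and 7.83 in pregnant arrays and 8.01 and 8.38 in virgin arrays. Of 27 such genes 4 lay above (14.8%, against 15% of all genes) and 6 below (22.2%, against 13.4%) on both pregnant arrays. Their median was -0.17, and 0.115 without virgin replicate 1. Of 24 imprinted genes, which are read from 1 parental copy, 6 lay above and 6 below (25% each, against 15% and 13.4% of all genes). The growth inhibitor gene Cdkn1c read 6.99 and 7.19 in pregnant arrays and 7.42 and 7.97 in virgin arrays. Nnat (neuronatin) read 6.87 and 7.14 against 7.96 and 7.97 in virgin arrays. Genes of involution, the regression after weaning, had 1 of 23 above (4.35%, against 15% of all genes) and 6 below (26.1%, against 13.4%). Their median was -0.25, and 0.035 without virgin replicate 1. Osmr, a subunit of the oncostatin M receptor, read 6.98 and 6.97 in pregnant arrays and 8.68 and 7.52 in virgin arrays.

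Among epithelial lineage genes, Itga6, an integrin of basal cells, read 12.28 and 12.08 in pregnant arrays and 11.78 and 11.54 in virgin arrays, while Trp63, the basal lineage factor, read 7.55 and 7.54 against 7.97 and 7.83. The tight junction gene Cldn7 read 11.84 and 11.42 in pregnant arrays and 11.06 and 11.17 in virgin arrays. Of 12 luminal genes 4 lay above (33.3%) and 2 below (16.7%), and of 18 basal genes 1 above (5.56%) and 3 below (16.7%), against 15% and 13.4% of all genes. Of 17 macrophage genes 0 lay above and 4 below (23.5%), with a median of -0.18 that was -0.01 without virgin replicate 1.

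A few genes differed widely between replicates of one label, and the examples here were chosen after their values were seen. Ctse, an aspartic protease, read 12.50 and 10.87 in pregnant arrays and 12.64 and 7.75 in virgin arrays. Chia1, an acidic chitinase, read 6.49 and 6.72 in pregnant arrays and 12.25 and 7.45 in virgin arrays, and Cst10, a cystatin, 6.15 and 6.67 against 12.09 and 7.56. Reg2 was the widest within the pregnant label, at 8.75 and 4.85 in pregnant arrays and 5.30 and 6.15 in virgin arrays. Birc5, a mitotic survival gene, read 7.70 and 10.18 in pregnant arrays and 8.46 and 10.22 in virgin arrays.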
